A study of Mus musculus with 10 samples.

Results

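The transcripts of 10 genes that silence retrotransposons were followed in mouse embryonic stem cells: Trim28, Setdb1, Mphosph8, Morc2a, Atrx, Daxx, Cbx3, Cbx5, Zfp809 and Zfp57. They were chosen by symbol from the 54456 genes of the deposited table. All 10 were present and passed the filter on low values, a mean of at least 10 normalized counts over the libraries. Levels are gene counts from stranded total RNA sequencing that the authors divided by 1 size factor per library.

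The series concerns an SVA retrotransposon linked to X-linked dystonia parkinsonism and uses mouse lines in which part of Taf1 is human-derived. Of its 10 samples, 7 stem cell libraries were analysed: 1 of the wild-type line MK6 and 2 each of 3 converted lines, named conv-dSVA_F, conv-dSVA_D and, for both deletions, conv-dSVA_F&D. By their names, these lines lack the SVA insertion F, D, or both. All groups share the strain C57BL/6J and culture on gelatin in medium with serum, LIF, CHIR99021 (a GSK3 inhibitor) and PD0325901 (a MEK inhibitor). All 3 converted genotypes list loxP[Taf1_i24], pSpCas9[null] and pSpCas9GFP[null], and further LPSwapinRed_pUC19[Taf1_3_4] and pCAGiCre[null]. Their humanization entry is hTAF1~mousifiedSVAdel~converted in conv-dSVA_F and hTAF1mousifieddSVA2~converted in conv-dSVA_D. In conv-dSVA_F&D it is hTAF1~mousifiedSVAdeldSVA2converted. Each genotype has a single line name in the labels, with no clone named, and effects of genotype and of line cannot be told apart. Separate cultures are not stated for the replicates, so p-values cover only the spread between these libraries, which may be technical. Pairs of values below are replicate 1 and then replicate 2, numbers given here by sample order because the labels have none. A pre-conversion stem cell library and 2 striatal libraries were not analysed here.

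SVA elements are retrotransposons of humans and other apes. In mouse and human cells, Krüppel-associated box (KRAB) zinc-finger proteins bind the DNA of particular retrotransposons and recruit the scaffold protein TRIM28, also called KAP1. TRIM28 brings in SETDB1, which methylates lysine 9 of histone H3, and HP1 proteins bind that mark. The HUSH complex acts with SETDB1 and the ATPase MORC2 on transcribed insertions, and ATRX with DAXX deposits the histone variant H3.3 at silent repeats. Embryonic stem cells rely on TRIM28 and SETDB1 to keep many endogenous retroviruses silent.

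None of the 10 genes passed the test in any comparison between lines. The test was limma on log2 of the normalized count plus 1, two-sided, with Benjamini-Hochberg adjustment over 15240 genes and a threshold of 0.05. Differences are on that log2 scale, first group less second, with the standard error after ±. Zfp809 had the smallest p of the 10 between conv-dSVA_F&D and conv-dSVA_D, Cbx5 in the other comparisons among converted pairs, and Daxx in the comparison with the wild type. Between conv-dSVA_F&D and conv-dSVA_F the limma p of Cbx5 (0.00583) and of Zfp809 (0.00585) nearly tied. The promoters of these 3 genes are shown for their small p alone. They are RefSeq windows on GRCm38.p6, from 250 bases before to 50 bases after the annotated start, read 5′ to 3′ on the gene's strand. All 10 genes had such a window. Capitals mark GGGCGG (an Sp/KLF box), CCAAT (an NFY box), CCGGAAG (an ETS core) and AAGATGGC (a YY1 core) on either strand. These marks and genes were chosen after the values were seen.
Zfp809 promoter, chr9:22225462-22225761, plus strand: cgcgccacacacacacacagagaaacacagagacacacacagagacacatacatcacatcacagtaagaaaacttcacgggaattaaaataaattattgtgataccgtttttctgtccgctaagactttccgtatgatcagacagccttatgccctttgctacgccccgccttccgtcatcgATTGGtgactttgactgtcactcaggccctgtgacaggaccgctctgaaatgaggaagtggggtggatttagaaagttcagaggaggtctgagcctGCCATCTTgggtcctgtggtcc
Cbx5 promoter, chr15:103239803-103240102, minus strand: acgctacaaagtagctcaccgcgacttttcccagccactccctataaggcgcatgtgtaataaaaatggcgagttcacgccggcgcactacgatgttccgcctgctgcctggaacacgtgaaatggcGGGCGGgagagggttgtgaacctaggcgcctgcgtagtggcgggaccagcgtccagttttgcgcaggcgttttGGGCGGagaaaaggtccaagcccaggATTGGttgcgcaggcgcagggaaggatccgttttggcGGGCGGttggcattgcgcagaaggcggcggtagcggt
Daxx promoter, chr17:33909195-33909494, plus strand: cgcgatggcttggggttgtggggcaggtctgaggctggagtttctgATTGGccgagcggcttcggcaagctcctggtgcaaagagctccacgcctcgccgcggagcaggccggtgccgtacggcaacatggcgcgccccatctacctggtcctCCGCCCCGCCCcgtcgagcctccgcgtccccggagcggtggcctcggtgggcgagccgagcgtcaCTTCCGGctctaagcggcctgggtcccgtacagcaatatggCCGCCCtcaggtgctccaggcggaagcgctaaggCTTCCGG

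The Zfp809 window held 11 CpG dinucleotides, that of Cbx5 29 and that of Daxx 33, where the median of 32851 promoters was 7. Zfp809 had 1 CCAAT and 1 AAGATGGC. Cbx5 had 3 GGGCGG and 1 CCAAT, and Daxx had 3 GGGCGG (2 of them share 1 base), 1 CCAAT and 2 CCGGAAG. Of all promoters, 35.7% held GGGCGG, 37.4% CCAAT, 8.86% CCGGAAG and 2.75% AAGATGGC. TATAAA (13.6% of promoters) and the NRF1 core (0.971%) were searched too and are not in these 3 windows. The matches describe letters and are not measured binding sites.

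Reads assigned to genes ranged from 16588467 to 26562418 per library, and the 10 genes took 0.354% to 0.400% of them. The lowest read count of any of them was 852, for Zfp809 in conv-dSVA_F&D replicate 2. The edited gene Taf1 stood at 2898 in the wild-type library, 501 and 589 in the conv-dSVA_F pair, 362 and 418 in the conv-dSVA_D pair and 1116 and 1088 in the conv-dSVA_F&D pair. The build named is the mouse mm10, and part of Taf1 is human-derived in the converted lines. Reads from that part may not be counted, so these values are no measure of total Taf1 RNA across lines. The 10 stem cell markers were all detected. They summed to 172764 normalized counts in the wild type, 142762 to 150427 in conv-dSVA_F, 179668 to 182485 in conv-dSVA_D and 158010 to 167627 in conv-dSVA_F&D. Of them limma called Nanog lower for conv-dSVA_F&D less conv-dSVA_D. At an unadjusted p under 0.05 there were 5 of 10 between conv-dSVA_F and conv-dSVA_D (16.7% of all genes) and 6 of 10 against the wild type (18.7%). There were 1 of 10 between conv-dSVA_F&D and conv-dSVA_D (19.8%) and 3 of 10 between conv-dSVA_F&D and conv-dSVA_F (20.7%). The 6 primitive endoderm and 4 tested neural markers had 0 calls with limma in the 4 comparisons of groups. At an unadjusted p under 0.05 there were 0 to 2 of a list, against 16.7% to 20.7% of all genes. The neural list had 2 of 4 in both comparisons among converted lines that include conv-dSVA_F. The primitive endoderm list had 2 of 6 between conv-dSVA_F&D and conv-dSVA_D, with a median of 1.18. Its sums were 217 to 234 in conv-dSVA_F&D, 102 to 104 in conv-dSVA_D, 116 to 341 in conv-dSVA_F and 113.5 in the wild type. The part of these markers in the results below was not tested. In bulk RNA, fewer cells of a type and less RNA per cell cannot be told apart.

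Levels between genes were compared per kilobase of merged exons in GENCODE M21. Trim28 was the most abundant of the 10, at 10577 normalized counts per kilobase on average and 8688 to 11403 over the 7 libraries. That level exceeded 99.5% of 12693 tested protein-coding genes, whose median was 100.4. Zfp57 (1454) and Cbx5 (1385) came next and overlapped in range. Daxx stood at 729 normalized counts per kilobase, Setdb1 at 503, Morc2a at 416, Mphosph8 at 412, Zfp809 at 346, Atrx at 331 and Cbx3 at 288. From Daxx down, neighbours in this order overlapped, while Trim28 stood clear of Zfp57, and Cbx5 of Daxx.

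**Figure D1:**
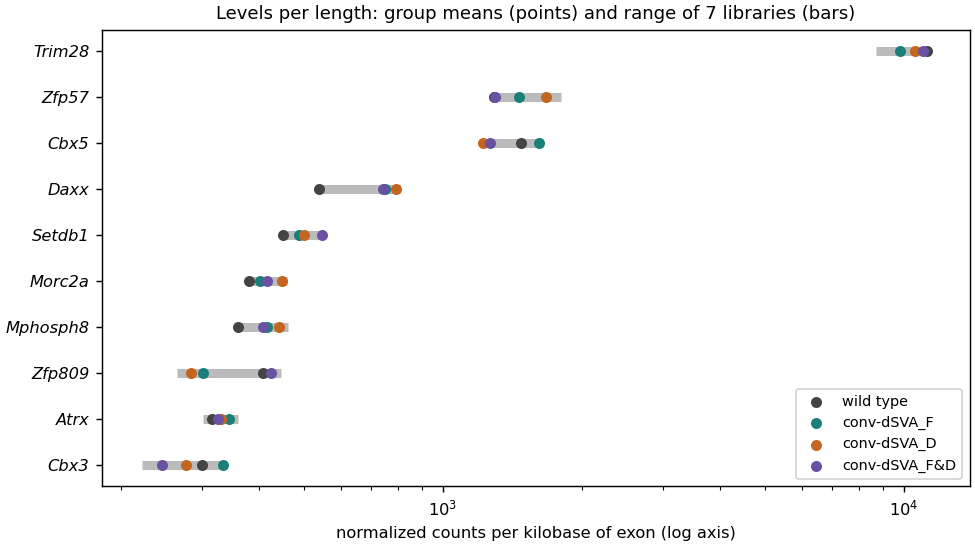
Normalized counts per kilobase of exon, on a log axis, for the 10 genes in the wild type and the 3 converted lines. Trim28 lies between 8688 and 11403 over the 7 libraries, and each of the 10 genes is above the median of tested protein-coding genes (100.4).

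The 10 genes varied less between libraries than most tested genes. The log2 range from lowest to highest library was 0.25 for Atrx, the narrowest, and 0.75 for Zfp809, the widest, with a median of 0.42. The median was 0.92 over all tested genes and 0.55 over the 4201 tested genes with a mean within the span of the 10. Zfp809, Cbx3 (0.59) and Daxx (0.58) were above that second median.

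**Figure D2:**
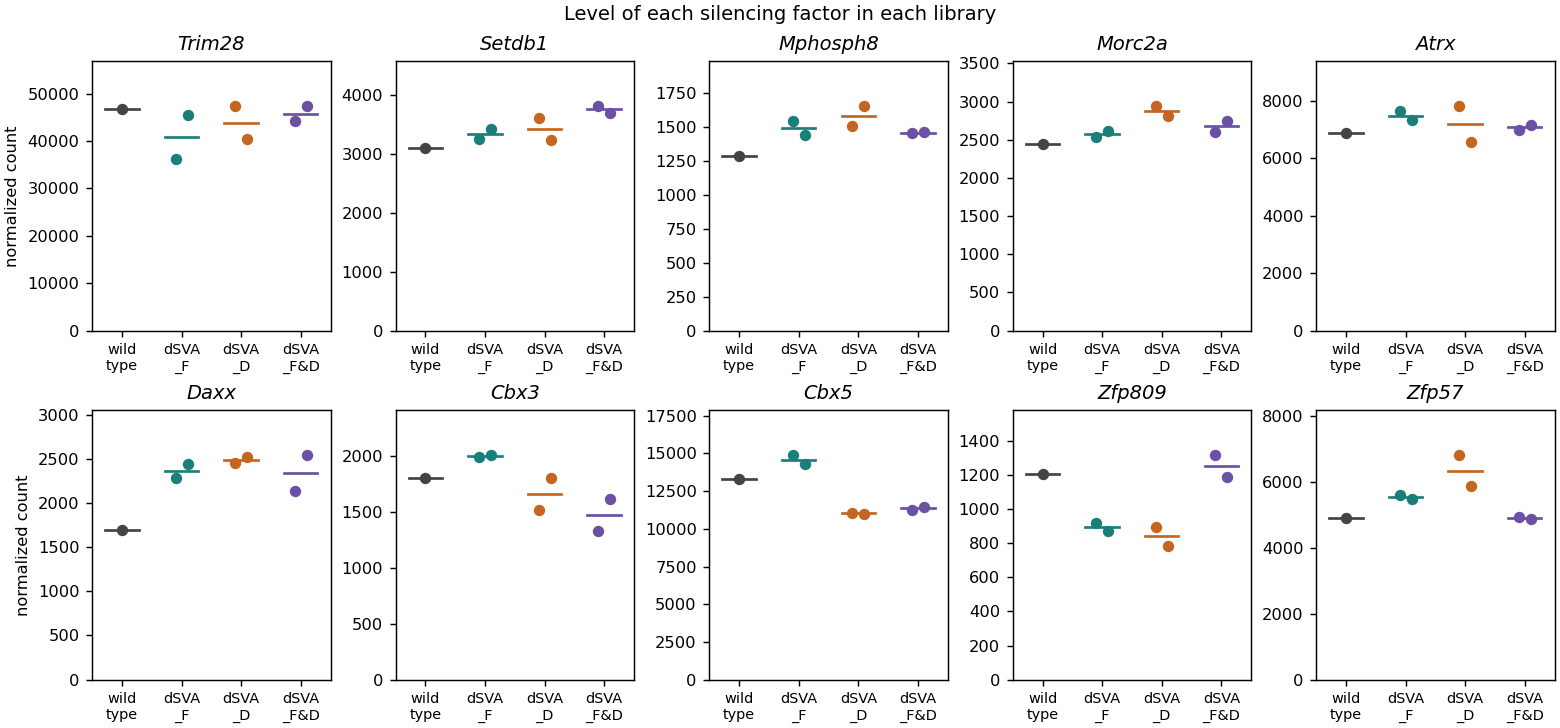
Normalized counts of the 10 genes in each of the 7 libraries; points are libraries and lines are group means. Zfp809 lies between 785 and 916 in the 4 libraries with a single deletion and between 1187 and 1318 in the other three, and Daxx is lowest in the wild type (1699).

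Zfp809 encodes a KRAB zinc-finger protein that binds the primer binding site of murine leukaemia viruses and related endogenous retroviruses. The gene is protein-coding, as are the 9 others, and lies in GRCm38, as for all positions below, at chromosome 9, 22225714 to 22243354, plus strand. It stood at 1205 in the wild-type library, 916 and 871 in the conv-dSVA_F pair, 896 and 785 in the conv-dSVA_D pair and 1318 and 1187 in the conv-dSVA_F&D pair. Both lines with a single deletion were below the wild type, at 74.2% and 69.8% of it, and conv-dSVA_F&D was at 104%. The libraries of conv-dSVA_F&D did not overlap with those of either single-deletion line.

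Between conv-dSVA_F&D (1252 ± 92.4, SD, n = 2) and conv-dSVA_D (841 ± 78.1, SD, n = 2), Zfp809 differed by 0.58 ± 0.14 (95% interval 0.27 to 0.88). This did not pass with limma (adjusted p = 0.0563) or edgeR (0.0533). It passed with DESeq2 (0.0172) and with limma on genes with a mean of at least 50 (0.0489), in a range of 0.0172 to 0.296 over all alternatives. Against conv-dSVA_F (894 ± 31.9, SD, n = 2) the difference was 0.48 ± 0.14 (95% interval 0.18 to 0.79), with limma adjusted p = 0.0845 and a range of 0.0521 to 0.313. These comparisons share libraries, so the second is no separate support of the first. Zfp809 stood at 0.09 ± 0.14 (95% interval -0.22 to 0.40) for conv-dSVA_F less conv-dSVA_D and at -0.30 ± 0.15 (95% interval -0.63 to 0.03) for the converted lines less the wild type. The gene model Gm48478 overlaps Zfp809 on the same strand, so some reads could belong to either.

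Zfp57 encodes the KRAB zinc-finger protein that, with TRIM28, maintains DNA methylation at imprinting control regions (chromosome 17, 37001163 to 37010635, plus strand). It stood at 4901 in the wild-type library, 5597 and 5486 in the conv-dSVA_F pair, 6824 and 5882 in the conv-dSVA_D pair and 4954 and 4883 in the conv-dSVA_F&D pair. The conv-dSVA_D libraries were the highest, and the conv-dSVA_F&D mean equalled 100.4% of the wild type. For conv-dSVA_F&D less conv-dSVA_D the difference was -0.37 ± 0.11 (95% interval -0.61 to -0.12), which did not pass (limma adjusted p = 0.108, range 0.0771 to 0.496). The other differences of Zfp57 were -0.17 ± 0.11 for conv-dSVA_F&D less conv-dSVA_F, -0.19 ± 0.11 for conv-dSVA_F less conv-dSVA_D and 0.18 ± 0.12 for the converted lines less the wild type. Among the converted lines, conv-dSVA_D had the highest mean of Zfp57 and the lowest of Zfp809.

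Trim28 encodes the scaffold on which KRAB zinc-finger repression depends (chromosome 7, 12999114 to 13031035, plus strand). It stood at 46677 in the wild-type library, 36126 and 45586 in the conv-dSVA_F pair, 47314 and 40510 in the conv-dSVA_D pair and 44223 and 47415 in the conv-dSVA_F&D pair. The lowest library was conv-dSVA_F replicate 1, and the groups overlapped in every comparison. Trim28 differed by 0.06 ± 0.15 (95% interval -0.27 to 0.40) for conv-dSVA_F&D less conv-dSVA_D and by 0.17 ± 0.15 (95% interval -0.16 to 0.51) for conv-dSVA_F&D less conv-dSVA_F. For conv-dSVA_F less conv-dSVA_D it was -0.11 ± 0.15 (95% interval -0.44 to 0.22), and for the converted lines less the wild type -0.11 ± 0.16 (95% interval -0.47 to 0.25). No interval of Trim28 reached a 2-fold change.

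Setdb1 encodes the histone H3 lysine 9 methyltransferase that works with both TRIM28 and HUSH (chromosome 3, 95323525 to 95357202, minus strand). It stood at 3089 in the wild-type library, 3256 and 3425 in the conv-dSVA_F pair, 3603 and 3238 in the conv-dSVA_D pair and 3810 and 3694 in the conv-dSVA_F&D pair. Both conv-dSVA_F&D libraries were above all others. The differences were 0.14 ± 0.11 (95% interval -0.11 to 0.38) from conv-dSVA_D and 0.17 ± 0.11 (95% interval -0.08 to 0.41) from conv-dSVA_F, and neither passed (limma adjusted p = 0.534 and 0.429). Setdb1 stood at -0.03 ± 0.11 for conv-dSVA_F less conv-dSVA_D and at 0.18 ± 0.12 for the converted lines less the wild type.

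Mphosph8 encodes MPP8, the HUSH subunit that binds methylated histone H3 (chromosome 14, 56668248 to 56697430, plus strand). It stood at 1287 in the wild-type library, 1544 and 1444 in the conv-dSVA_F pair, 1505 and 1655 in the conv-dSVA_D pair and 1459 and 1460 in the conv-dSVA_F&D pair. The wild-type library was the lowest, and the converted lines differed from it by 0.23 ± 0.13 (95% interval -0.06 to 0.52), which did not pass (limma adjusted p = 0.393). Among converted lines Mphosph8 stood at -0.11 ± 0.12 for conv-dSVA_F&D less conv-dSVA_D, -0.03 ± 0.12 for conv-dSVA_F&D less conv-dSVA_F and -0.08 ± 0.12 for conv-dSVA_F less conv-dSVA_D.

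Morc2a encodes the mouse MORC2 ATPase, an effector of HUSH (chromosome 11, 3649191 to 3690477, plus strand). It stood at 2445 in the wild-type library, 2531 and 2611 in the conv-dSVA_F pair, 2943 and 2817 in the conv-dSVA_D pair and 2607 and 2743 in the conv-dSVA_F&D pair. Both conv-dSVA_D libraries were above all others, and the wild type was the lowest. Differences of Morc2a were -0.11 ± 0.11 (95% interval -0.35 to 0.14) for conv-dSVA_F&D less conv-dSVA_D and -0.16 ± 0.11 (95% interval -0.40 to 0.08) for conv-dSVA_F less conv-dSVA_D (limma adjusted p = 0.632 and 0.501). It stood at 0.06 ± 0.11 for conv-dSVA_F&D less conv-dSVA_F and at 0.15 ± 0.12 for the converted lines less the wild type. Morc2a, Trim28, Setdb1, Mphosph8 and Atrx overlap annotated genes on the opposite strand, and the use of strand in the counting is not stated. On its own strand Atrx overlaps the processed pseudogene Gm14853, so some reads could belong to either.

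Atrx encodes the chromatin remodeller of the H3.3 pathway and is on the same chromosome as the edited Taf1, 4195826 bases away (chromosome X, 105797615 to 105929403, minus strand). It stood at 6871 in the wild-type library, 7644 and 7337 in the conv-dSVA_F pair, 7828 and 6562 in the conv-dSVA_D pair and 6997 and 7181 in the conv-dSVA_F&D pair. Both the highest and the lowest library belonged to conv-dSVA_D. Atrx differed by -0.02 ± 0.12 (95% interval -0.28 to 0.24) for conv-dSVA_F&D less conv-dSVA_D, -0.08 ± 0.12 (95% interval -0.34 to 0.18) for conv-dSVA_F&D less conv-dSVA_F, 0.06 ± 0.12 for conv-dSVA_F less conv-dSVA_D and 0.08 ± 0.13 for the converted lines less the wild type.

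Daxx encodes the H3.3 chaperone that pairs with ATRX (chromosome 17, 33909414 to 33915590, plus strand). It stood at 1699 in the wild-type library, 2281 and 2446 in the conv-dSVA_F pair, 2455 and 2521 in the conv-dSVA_D pair and 2140 and 2542 in the conv-dSVA_F&D pair. All 6 converted libraries were above the wild type, at 139%, 146% and 138% of it in the means of the F, D and F&D deletion lines. The difference was 0.49 ± 0.13 (95% interval 0.20 to 0.79) and did not pass with limma (adjusted p = 0.0976) or edgeR (0.106). It passed with DESeq2 (0.0433) and with limma without conv-dSVA_F&D replicate 1 (0.0493), in a range of 0.0433 to 0.364 over all alternatives. The wild type is 1 library, assumed to vary like the converted groups. The 8 fibroblast markers summed to 484 in it and to between 79.7 and 203 in the converted libraries. Among them Postn stood at 57.9 in the wild type and at 0 in all 6 converted libraries, Lum at 0 in all 7 libraries, and Dcn at 0 in all but the conv-dSVA_F libraries. Their part in the Daxx difference was not tested. Among converted lines Daxx stood at -0.09 ± 0.12 for conv-dSVA_F&D less conv-dSVA_D, -0.02 ± 0.12 for conv-dSVA_F&D less conv-dSVA_F and -0.07 ± 0.12 for conv-dSVA_F less conv-dSVA_D.

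Cbx5 encodes HP1 alpha, a reader of histone H3 lysine 9 methylation (chromosome 15, 103191544 to 103239816, minus strand). It stood at 13324 in the wild-type library, 14891 and 14295 in the conv-dSVA_F pair, 11071 and 10974 in the conv-dSVA_D pair and 11280 and 11479 in the conv-dSVA_F&D pair. The conv-dSVA_F libraries were the highest, and both lines that lack SVA_D were below the wild type, at 82.7% and 85.4% of it. The difference was 0.40 ± 0.10 (95% interval 0.18 to 0.63) for conv-dSVA_F less conv-dSVA_D and -0.36 ± 0.10 (95% interval -0.59 to -0.13) for conv-dSVA_F&D less conv-dSVA_F. Neither passed with limma (adjusted p = 0.0893 and 0.0844) or edgeR (0.0895 and 0.0936). Both passed with DESeq2 (0.0217 and 0.0393), in ranges of 0.0217 to 0.484 and 0.0393 to 0.383 over all alternatives. Cbx5 stood at 0.05 ± 0.10 for conv-dSVA_F&D less conv-dSVA_D and at -0.12 ± 0.11 for the converted lines less the wild type. The 7 trophoblast markers also summed highest in conv-dSVA_F, to 5203 and 2282, against 983 to 2269 in the other libraries, with Elf5 at 0 in conv-dSVA_F&D. Of these sums Krt8 and Krt18, keratin genes of epithelia, made up 4075 and 1344 in conv-dSVA_F and 183 to 1013 in the others. The other 5 markers summed to 1128 and 938 in conv-dSVA_F and overlapped with the other libraries (670 to 1263). Relative to conv-dSVA_D, limma called Krt8 and Krt18 higher in both conv-dSVA_F and conv-dSVA_F&D. Their part in the Cbx5 differences was not tested.

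Cbx3 encodes HP1 gamma. Its place is chromosome 6, 51470360 to 51483704, plus strand, and 8 pseudogenes named for it are in the table, so its reads may be shared with them. It stood at 1803 in the wild-type library, 1988 and 2009 in the conv-dSVA_F pair, 1514 and 1807 in the conv-dSVA_D pair and 1331 and 1619 in the conv-dSVA_F&D pair. As for Cbx5, both conv-dSVA_F libraries were the highest. The difference for conv-dSVA_F&D less conv-dSVA_F was -0.44 ± 0.14 (95% interval -0.76 to -0.13) (limma adjusted p = 0.116, range 0.0753 to 0.893), and for conv-dSVA_F less conv-dSVA_D it was 0.27 ± 0.14 (95% interval -0.04 to 0.59). The median of chromosome 6 genes in these comparisons was -0.42 and 0.28. With chromosome medians set equal, the Cbx3 differences became -0.05 and -0.00. Cbx3 stood at -0.17 ± 0.14 for conv-dSVA_F&D less conv-dSVA_D and at -0.09 ± 0.15 for the converted lines less the wild type. On the other chromosomes that hold one of the 10 genes, medians lay between -0.10 and 0.06 in every comparison of groups.

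**Figure D3:**
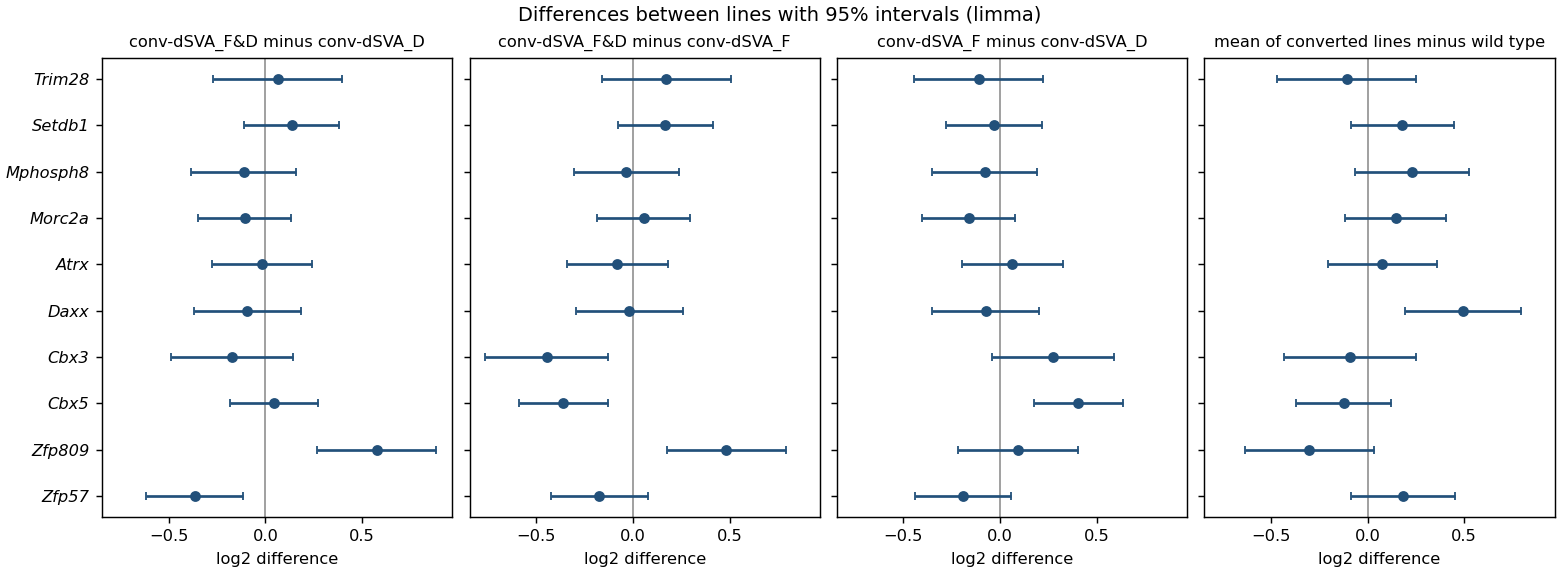
Log2 differences of the 10 genes in the 4 comparisons of groups, with 95% intervals from limma. The interval excludes 0 for Zfp809 and Zfp57 between conv-dSVA_F&D and conv-dSVA_D, for Cbx3, Cbx5 and Zfp809 between conv-dSVA_F&D and conv-dSVA_F, for Cbx5 between conv-dSVA_F and conv-dSVA_D, and for Daxx against the wild type; none passed after adjustment.

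Counts over the 10 genes were set beside those over all tested genes. Between conv-dSVA_F&D and conv-dSVA_D, limma called 0 of 10, against 3.16% of all genes. At an unadjusted p under 0.05 there were 2 of 10 (19.8% of all), edgeR called 0 (3.04%), DESeq2 called 1 (7.49%) and limma on genes with a mean of at least 50 called 1 (4.37%). Between conv-dSVA_F&D and conv-dSVA_F, limma called 0 (3.92%), with 3 at an unadjusted p under 0.05 (20.7%), 0 with edgeR (3.63%) and 1 with DESeq2 (9.16%). Between conv-dSVA_F and conv-dSVA_D, limma called 0 (1.35%), with 1 at an unadjusted p under 0.05 (16.7%), 0 with edgeR (1.48%) and 1 with DESeq2 (5.08%). Against the wild type, limma called 0 (1.15%), with 1 at an unadjusted p under 0.05 (18.7%), 0 with edgeR (2.0%) and 1 with DESeq2 (7.63%). In limma's F test for any difference among the 3 converted lines, 0 were called (5.58%), with 4 at an unadjusted p under 0.05 (24.5%) and 0 with edgeR (5.48%). With limma on genes with a mean of at least 50, 0 of 10 were called in these last 4 tests, against 5.66%, 1.69%, 1.89% and 7.96% of all genes. For any difference DESeq2 called Cbx5 (0.0119) and Zfp809 (0.014), where it called 14.3% of all genes.

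Libraries of the compared groups did not overlap for 6 of 10 genes between conv-dSVA_F&D and conv-dSVA_D, against 49.9% of all genes. The count was 6 of 10 between conv-dSVA_F&D and conv-dSVA_F (49.3%), 5 of 10 between conv-dSVA_F and conv-dSVA_D (52.0%) and 4 of 10 for the wild type (37.8%). Without its sign, the median log2 difference was 0.11, 0.17, 0.10 and 0.16 over the 10 genes in this order of comparisons, and 0.29, 0.30, 0.26 and 0.31 over all tested genes. Over genes with a mean of at least 50 it was 0.24, 0.24, 0.21 and 0.26. All tested genes include ones with far lower counts than the 10.

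Further genes of these pathways came from 6 lists: HUSH and its effectors, TRIM28 partners, KRAB zinc-finger genes with known targets, enzymes and readers of histone H3 lysine 9 methylation, H3.3 deposition, and DNA methylation with other repressors. Beyond the 10 they hold 64 genes, of which 59 were tested and Sp100, Trex1, Trim5, Zfp708 and Zfp92 were too low. They are described in the 3 comparisons among converted lines. None of the 59 was called higher there, where limma called 1.96%, 1.71% and 1.08% of all genes higher. Called lower were Resf1 (conv-dSVA_F&D less conv-dSVA_D), Smarcad1 and Asf1b (conv-dSVA_F&D less conv-dSVA_F) and Tasor2 (conv-dSVA_F less conv-dSVA_D), where 1.21%, 2.21% and 0.262% of all genes were. At an unadjusted p under 0.05 there were 16, 15 and 16 of the 59, against 19.8%, 20.7% and 16.7% of all genes, and their median differences were -0.09, 0.04 and -0.07.

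Resf1 encodes a partner of SETDB1 in the silencing of endogenous retroviruses and lies on chromosome 6. It stood at 5489 in the wild-type library, 6480 and 6388 in the conv-dSVA_F pair, 8781 and 8313 in the conv-dSVA_D pair and 5961 and 5835 in the conv-dSVA_F&D pair. Both conv-dSVA_D libraries were above all others. Resf1 differed by -0.41 for conv-dSVA_F less conv-dSVA_D, which did not pass (limma adjusted p = 0.0867). It passed there with DESeq2 (0.028) and with chromosome medians set equal (-0.68, limma adjusted p = 0.017). That setting moved conv-dSVA_F&D less conv-dSVA_F from -0.13 to 0.27. For conv-dSVA_F&D less conv-dSVA_D the difference was -0.53 ± 0.10 (limma adjusted p = 0.0271), and stood at -0.41 with chromosome medians set equal (adjusted p = 0.0529). The call was lost without any 1 of conv-dSVA_D replicate 1, conv-dSVA_D replicate 2, conv-dSVA_F replicate 1, conv-dSVA_F replicate 2 and conv-dSVA_F&D replicate 2 (adjusted p 0.051 to 0.195).

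Tasor2 is a relative of the HUSH subunit gene Tasor. It stood at 2112 in the wild-type library, 1892 and 1664 in the conv-dSVA_F pair, 3121 and 2816 in the conv-dSVA_D pair and 2278 and 1829 in the conv-dSVA_F&D pair. As for Resf1, the conv-dSVA_D libraries were the highest. Tasor2 was lower in conv-dSVA_F than in conv-dSVA_D, with a difference of -0.74 ± 0.14 (limma adjusted p = 0.0399). Its symbol was given no chromosome from GENCODE M21, so setting chromosome medians equal left its values unshifted and is no check of this difference. The call was lost without any 1 of conv-dSVA_D replicate 1, conv-dSVA_D replicate 2, conv-dSVA_F replicate 1 and conv-dSVA_F replicate 2 (adjusted p 0.145 to 0.304).

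Smarcad1 encodes a chromatin remodeller that binds TRIM28 and lies on chromosome 6. It stood at 5153 in the wild-type library, 7542 and 6850 in the conv-dSVA_F pair, 5141 and 5037 in the conv-dSVA_D pair and 4779 and 5043 in the conv-dSVA_F&D pair. Both conv-dSVA_F libraries were above all others. For conv-dSVA_F&D (4911 ± 186, SD, n = 2) less conv-dSVA_F (7196 ± 489.6, SD, n = 2) Smarcad1 differed by -0.55 ± 0.11 (limma adjusted p = 0.0263). With chromosome medians set equal it stood at -0.15 (adjusted p = 0.473). The call was lost without any 1 of conv-dSVA_D replicate 1, conv-dSVA_D replicate 2, conv-dSVA_F replicate 1 and conv-dSVA_F replicate 2 (adjusted p 0.0603 to 0.22).

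Asf1b encodes a histone H3 and H4 chaperone and lies on chromosome 8. It stood at 878 in the wild-type library, 1308 and 1270 in the conv-dSVA_F pair, 921 and 1026 in the conv-dSVA_D pair and 901 and 788 in the conv-dSVA_F&D pair. Both conv-dSVA_F libraries were above all others. For conv-dSVA_F&D (845 ± 79.5, SD, n = 2) less conv-dSVA_F (1289 ± 26.4, SD, n = 2) Asf1b differed by -0.61 ± 0.14 (limma adjusted p = 0.043). With chromosome medians set equal it stood at -0.08 (adjusted p = 0.79). The call was lost without any 1 of conv-dSVA_D replicate 1, conv-dSVA_D replicate 2, conv-dSVA_F replicate 1, conv-dSVA_F replicate 2 and conv-dSVA_F&D replicate 2 (adjusted p 0.0805 to 0.259).

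Each of these 4 calls was also lost with no variance trend (adjusted p 0.21 to 0.277) and with no low-value filter (0.148 to 0.215). With only the libraries of both sides in the fit, Resf1 (adjusted p = 0.0516), Smarcad1 (0.0598) and Asf1b (0.078) were lost and Tasor2 (0.0161) passed.

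**Figure D4:**
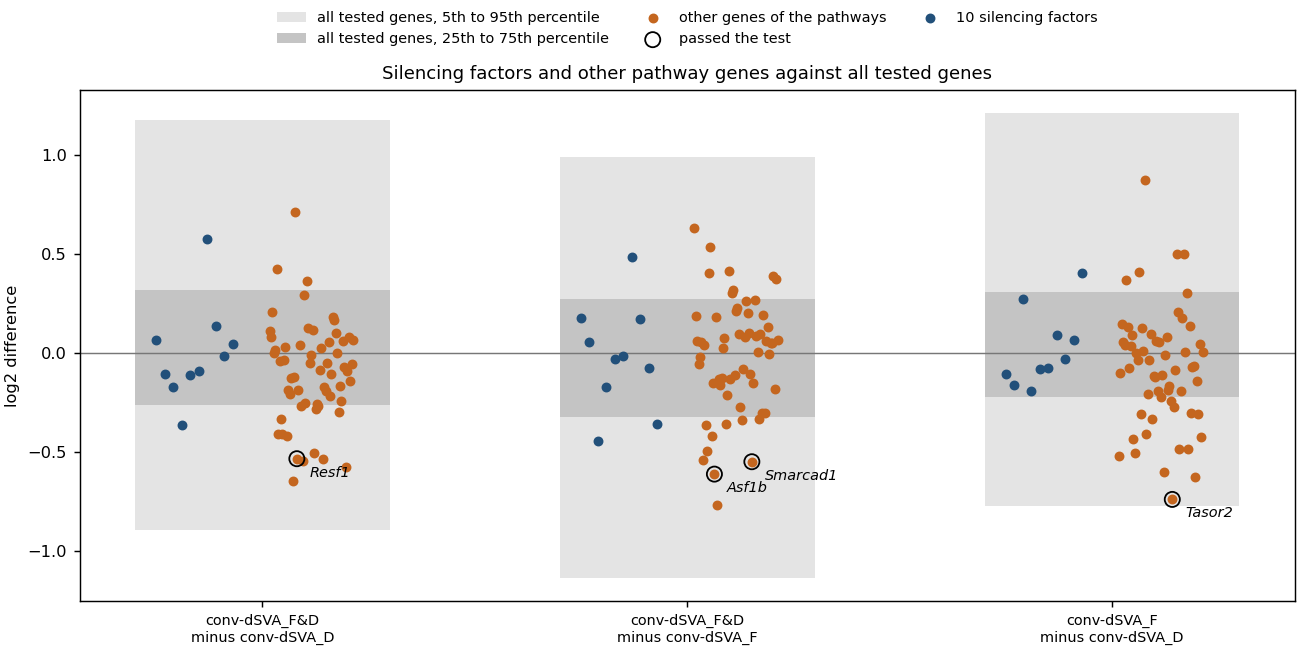
Log2 differences of the 10 silencing factors and of 59 other pathway genes in the 3 comparisons among converted lines, over bands for all 15240 tested genes. The 4 pathway genes that passed with limma (Resf1, Smarcad1, Asf1b and Tasor2, circled) did so in 1 comparison each, all with a difference below 0.

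By list, the 8 HUSH genes and the 11 tested H3.3 genes had 1 call each over the 3 comparisons among converted lines, and the 17 TRIM28 partners had 2. The KRAB zinc-finger genes (13 tested), the histone H3 lysine 9 genes (15) and the DNA methylation genes (13) had 0 with limma in these and against the wild type. Each of these lists had 1 to 5 genes per comparison at an unadjusted p under 0.05, against 16.7% to 20.7% of all genes. Against the wild type, 6 of the 11 H3.3 genes, which include Atrx and Daxx, had an unadjusted p under 0.05, Daxx among them, against 18.7% of all genes, and the list's median was 0.21. Pml (a nuclear body gene, 0.67 ± 0.14, adjusted p = 0.0583) and the HIRA partners Ubn1 (0.68 ± 0.18) and Cabin1 (0.53 ± 0.13) stood beside Daxx there without passing. Other genes of the list went the other way: H3f3a (-0.58), Asf1a (-0.32), Hira (-0.18) and H3f3b (-0.01). H3f3a also had one of the smallest p of the pathway genes there. All of these are named after their values were seen.

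Imprinted genes next to control regions that ZFP57 and TRIM28 bind were listed as known targets, and 16 of 19 were tested. Of these, 2 rose and 1 fell between conv-dSVA_D and conv-dSVA_F&D: H19 (a noncoding RNA, 6.06 ± 0.60) and Peg3 (a zinc-finger gene, 1.16 ± 0.22) rose and Mest (-0.997 ± 0.20) fell. For conv-dSVA_F&D less conv-dSVA_F, Grb10 was higher (1.63 ± 0.30) and Mest (-2.16 ± 0.20) and Nnat (-1.84 ± 0.35) were lower. For conv-dSVA_F less conv-dSVA_D, 4 were higher, among them H19 (6.39 ± 0.60), Peg3 (1.55 ± 0.22) and Mest (1.16 ± 0.20), and Grb10 was lower (-2.19 ± 0.30). Of all genes limma called 3.16%, 3.92% and 1.35% in these comparisons, in this order. Against the wild type Mest (1.59 ± 0.21), Nnat (2.32 ± 0.38) and Meg3 (1.75 ± 0.35) were higher, where limma called 0.623% of all genes higher. Peg3 stood at 2005 in the wild-type library, 3534 and 2676 in the conv-dSVA_F pair, 1176 and 937 in the conv-dSVA_D pair and 1856 and 2959 in the conv-dSVA_F&D pair. Its conv-dSVA_D libraries were the lowest. Mest lies on chromosome 6, and with chromosome medians set equal its call between conv-dSVA_F and conv-dSVA_D was lost (adjusted p = 0.063).

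The calls on imprinted genes were all lost with no low-value filter and with no variance trend. Against the wild type, Meg3 did not pass with edgeR (adjusted p = 0.0604). It did not pass with limma with an added constant of 0.5 (0.0524) or chromosome medians set equal (0.0527). With only the libraries of both sides in the limma fit, Mest was lost between conv-dSVA_F&D and conv-dSVA_D (0.0587). Nnat was lost in that setting between conv-dSVA_F&D and conv-dSVA_F (0.0525). Of the 3 between conv-dSVA_F&D and conv-dSVA_D, 0 passed without conv-dSVA_D replicate 1 (adjusted p 0.058 to 0.223), and of the 3 between conv-dSVA_F&D and conv-dSVA_F, 0 without conv-dSVA_F replicate 1 (0.0884 to 0.203). Of the 5 between conv-dSVA_F and conv-dSVA_D, 0 passed without conv-dSVA_D replicate 2 (0.0677 to 0.159), 1 (H19) without conv-dSVA_F replicate 1 and 2 (Grb10 and Peg10) without conv-dSVA_D replicate 1. Against the wild type 0 of 3 passed with the converted libraries as 1 group (0.329 to 0.505), without conv-dSVA_D replicate 1 (0.0722 to 0.134) and without conv-dSVA_F replicate 2 (0.061 to 0.113), and Mest alone without either of the other replicates of these lines. The keratin genes Krt8 and Krt18 from the trophoblast markers were also called higher in both lines relative to conv-dSVA_D (conv-dSVA_F, then conv-dSVA_F&D), and that list's medians were 2.76 and 1.59 there. Their part in the imprinted gene differences was not tested.

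Genes of the 2-cell-like state, driven by or near MERVL repeats, were listed too, and 12 of 14 were tested. In conv-dSVA_F&D 5 were higher than in conv-dSVA_D, where limma called 1.96% of all genes higher, among them Tmem92 (3.55 ± 0.42), Zscan4d (2.42 ± 0.39), Zscan4c (2.56 ± 0.46) and Eif1ad2 (4.21 ± 0.79). In conv-dSVA_F 5 were higher than in conv-dSVA_D (1.08% of all genes), and 3 were lower in the converted lines than in the wild type, where 0.525% of all genes were. Between conv-dSVA_F&D and conv-dSVA_F limma called 0, with 1 at an unadjusted p under 0.05. Tmem92 stood at 389 in the wild-type library, 175 and 102 in the conv-dSVA_F pair, 9.60 and 11.4 in the conv-dSVA_D pair and 174 and 102 in the conv-dSVA_F&D pair. It was highest in the wild type and lowest in conv-dSVA_D. Eif1ad2 stood at 0 and 2.45 in the conv-dSVA_D pair and at 22.9 and 48.8 in the conv-dSVA_F&D pair. The 2.45 is 3 reads, so the size of the Eif1ad2 difference depends on the added 1. All these calls were lost with no low-value filter, with no variance trend and without conv-dSVA_D replicate 1. Those between conv-dSVA_F and conv-dSVA_D were also lost without conv-dSVA_D replicate 2 (adjusted p 0.0677 to 0.123) and without conv-dSVA_F replicate 1 (0.182 to 0.385), and only Tmem92 passed between conv-dSVA_F&D and conv-dSVA_D without conv-dSVA_D replicate 2. Those against the wild type were lost without conv-dSVA_D replicate 2, without conv-dSVA_F replicate 2 and with the converted libraries as 1 group (0.46 to 0.558). Krt8 and Krt18 were called higher and Nanog lower between conv-dSVA_F&D and conv-dSVA_D too, as given above, and their part was not tested. With only the libraries of both sides in the fit, 1 of the 5 calls between conv-dSVA_F&D and conv-dSVA_D passed (Tmem92). All 5 between conv-dSVA_F and conv-dSVA_D passed in that setting. Zscan4 genes are near-identical copies that may share reads.

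The genes nearest in pattern were taken by the root mean square difference of centred log2 levels over the 7 libraries, among 9801 candidates. For Zfp809 they were Hadh (0.06) and Mbd5 (0.07), where the median candidate was at 0.35. Hadh, a fatty acid oxidation gene, stood at 3600 in the wild-type library, 2685 and 2431 in the conv-dSVA_F pair, 2573 and 2351 in the conv-dSVA_D pair and 3461 and 3332 in the conv-dSVA_F&D pair. Like Zfp809, Hadh was lower in the 4 single-deletion libraries than in the wild type and conv-dSVA_F&D. It was picked for its closeness to Zfp809, so this likeness is no separate result. For Cbx5 they were Ate1 (0.05) and Osbpl8 (0.05; median 0.29), for Daxx Ipo9 (0.04) and Adat1 (0.06; median 0.29), and for Zfp57 Map3k7 (0.03) and Ybx3 (0.05; median 0.27). Setdb1 was nearest to Vcp and the histone methyltransferase gene Setd2, Trim28 to Prdm15 and Kat8, Mphosph8 to Mia3 and Ddx42, Morc2a to Gle1, Atrx to Cdc20 and Ascc3, and Cbx3 to Vti1b and Ciao2b, at 0.03 to 0.06. None of the 10 genes was among the nearest pair of another.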

How the data were processed

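Gene-level RNA-seq values of 7 mouse stem cell libraries were used. The deposited signal is a table of normalized counts that, per the file and its values, are gene counts the authors divided by 1 size factor per library. Per the submitters' processing notes, the tools include featureCounts 1.6.3, STAR 2.7.3, DESeq2 and Trimmomatic 0.36, with Picard 2.18.20 and deepTools 3.1.0, on mm10. The role of each, the annotation and the strand setting are not given in the sources used here. The step between values gave back whole reads, to within 0.1 read for 100% of values above 0. Replicates differed by more than sampling noise (chi-square per degree of freedom 17.8 to 33.9).

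The main test was limma 3.58.1 (R 4.3.3) with a variance trend on log2(normalized count + 1), with 1 mean for each of 4 groups (3 residual and 6.80 prior degrees of freedom). The added 1 understates differences of genes with few reads. On the recovered reads, edgeR 4.0.16 (quasi-likelihood) called 463, 553, 225 and 305 genes in the 4 comparisons of groups, and DESeq2 1.42.0 was run too. The script was tested on simulated data. Positions and lengths come from GENCODE M21 (GRCm38), in which 92.9% of symbols matched. The 10 genes, lists, marker lists and naming rule were chosen with earlier results of these data known. The rule names each of the 10, up to 4 called genes per list with the smallest p, and the 2 genes nearest in pattern with a mean of at least 100. Of the genes it names, 2 are not reported here.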

Additional observations from a re-analysis of the deposited data

How the results depend on the processing

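Of 670 values of one of the 10 genes under an alternative, 648 kept direction and side of the threshold, 6 newly passed and 16 changed sign. With DESeq2, 1 of the 10 passed in each comparison of groups and 2 in the test for any difference. A mean of at least 50 gave 1 (conv-dSVA_F&D with conv-dSVA_D), and left-out libraries gave 0 to 1 against the wild type. The 16 values that changed sign belong to differences that did not pass. With chromosome medians set equal Atrx stood at 0.011 (conv-dSVA_F&D less conv-dSVA_D), and Cbx3 at -0.0015 and Daxx at 0.0065 (conv-dSVA_F less conv-dSVA_D). With 1 library left out, conv-dSVA_F&D less conv-dSVA_D ran from -0.047 to 0.18 for Trim28, -0.14 to 0.11 for Atrx and -0.22 to 0.031 for Daxx. Likewise conv-dSVA_F&D less conv-dSVA_F ran from -0.081 to 0.015 for Mphosph8 and -0.14 to 0.11 for Daxx, and conv-dSVA_F less conv-dSVA_D from -0.28 to 0.058 for Trim28, -0.11 to 0.045 for Setdb1, -0.064 to 0.19 for Atrx and -0.0037 to 0.19 for Zfp809.

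Counts over all genes moved more, and the cause was not tested. Between conv-dSVA_F&D and conv-dSVA_D limma called 482 genes. It called 0 with no low-value filter (3823 at unadjusted p under 0.05), 0 with no variance trend (2452), 246 with only the libraries of both sides and 0 to 769 with 1 library left out, and DESeq2 called 1031. Between conv-dSVA_F&D and conv-dSVA_F the 597 became 0 (4058), 0 (2535), 200 and 0 to 881 in that order, 1206 with DESeq2 and 181 with chromosome medians set equal. Between conv-dSVA_F and conv-dSVA_D the 205 became 0 (3451), 1, 504 and 0 to 488, and 729 with DESeq2. For any difference the 850 became 0 (4408) with no filter, 0 (2727) with no trend, 9 to 1315 with 1 library left out, 1888 with DESeq2 and 551 with chromosome medians set equal. Against the wild type the 175 became 906 with no filter, 1 with no trend, 275 with an added constant of 5, 305 with edgeR and 847 with DESeq2. There limma called 0 with the converted libraries as 1 group (1603 at unadjusted p under 0.05), and 2 to 599 with 1 library left out. With 1 library left out, the limma counts of 0 came without conv-dSVA_D replicate 1, conv-dSVA_F replicate 1 and conv-dSVA_D replicate 2 in the first 3 comparisons (with 1866, 1794 and 1839 genes at an unadjusted p under 0.05; no other tool was run there). No paired analysis was possible because the labels give no replicate numbers.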
